A study of Rattus norvegicus with 34 samples.

Results

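*Mrc1*, *Mrc2*, and *Stab1* are the 3 genes for mannose and scavenger receptors among the 48 genes of a TaqMan microfluidic card that was run on retinal RNA of single rats. They were chosen by name as a family of receptors, and they are read beside the 41 of 44 specific genes of the card that could be tested, which include them. The other 4 genes of the card are reference genes. Expression was compared across 4 groups. The first was 6 uninjected Sprague Dawley (SD) rats, the wild-type control strain. The second was 6 uninjected PKD rats, PKD2(HA-1/703-CMV-247), which carry a truncated polycystin-2 transgene under the ubiquitously active CMV promoter, so that the transgene is not restricted to one retinal cell type. The remaining groups were PKD rats with 3 µl of liposomes injected into the vitreous at 4 and 8 weeks of age. They comprised 5 rats given liposomes loaded with clodronate (PKD + Clodronate), a bisphosphonate that is toxic to phagocytes that engulf it, and 6 rats given control liposomes without it (PKD + Controlliposomes). All retinae were taken at 9 weeks of age, and the PKD rats were males homozygous for the transgene. Both liposome groups therefore carry the transgene as well as the injection, and a comparison of either with SD rats combines both.

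The products of these genes are endocytic receptors at the cell surface. *Mrc1* encodes the macrophage mannose receptor, a C-type lectin that takes up mannosylated glycoproteins. It is a classical marker of alternatively activated and of perivascular macrophages. *Mrc2* encodes a relative of the same lectin family that binds and internalizes collagen and is found mainly on fibroblasts and other mesenchymal cells. *Stab1* encodes stabilin-1, a scavenger receptor of tissue macrophages and of some endothelial cells, which clears modified lipoproteins and matrix proteins. In the central nervous system, *Mrc1* and *Stab1* are known for marking macrophages at vessels and borders rather than resting parenchymal microglia. The card measured whole retinae, so fewer cells of a type and less RNA per cell cannot be told apart.

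In RefSeq (assembly GRCr8) *Mrc1* lies at chr17:82157725-82239411, *Mrc2* at chr10:90761751-90823055, and *Stab1* at chr16:6336871-6367374. The bases before the start sites of *Mrc1* and *Stab1* are printed because the expression of these genes varied together between rats, and RefSeq promoters were at hand for 2 of the 3 genes. The *Mrc1* sequence covers chr17:82157475-82157724 on the plus strand, and the *Stab1* sequence chr16:6367375-6367609 on the minus strand. Capitals mark GAGGAA or its reverse complement TTCCTC, the purine-rich core recognized by PU.1 (encoded by *Spi1*), a transcription factor of the macrophage lineage, and by other ETS factors.
*Mrc1*: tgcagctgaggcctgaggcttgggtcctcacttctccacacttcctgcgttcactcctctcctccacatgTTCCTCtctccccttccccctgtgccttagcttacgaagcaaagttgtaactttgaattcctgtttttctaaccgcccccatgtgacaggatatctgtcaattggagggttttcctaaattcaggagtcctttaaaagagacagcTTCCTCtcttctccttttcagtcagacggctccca
*Stab1*: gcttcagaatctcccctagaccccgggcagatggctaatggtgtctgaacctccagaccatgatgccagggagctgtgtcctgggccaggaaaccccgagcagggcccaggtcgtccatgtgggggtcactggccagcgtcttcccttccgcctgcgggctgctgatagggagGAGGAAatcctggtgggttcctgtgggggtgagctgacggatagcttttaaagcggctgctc
The *Mrc1* sequence held 2 matches, whose first bases lie 180 and 35 bases upstream of the start, and the *Stab1* sequence held 1. Matches on either strand were also found in 23.3% of 33469 rat promoters searched over 250 bases before the start. The letters were chosen after the sequences had been seen, and a match is not a binding site.

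All 3 genes were detected in every rat. Their 69 wells gave quantification cycles (Cq, the PCR cycle at which fluorescence crosses the threshold; 1 cycle less is about 2-fold more template) between 21.7 and 27.5. Of all 1104 wells of the 23 rats, 57 gave no Cq. For expression, a gene's Cq was subtracted from the average Cq of 4 reference genes, *18S*, *B2m*, *Mrpl19*, and *Ywhaz*. The result is on a log2 scale, and the SD group mean was set to 0. The mean reference Cq was 16.3 ± 0.342 (standard deviation, n = 6) in SD, 16.5 ± 0.221 (n = 6) in PKD, 16.5 ± 0.548 (n = 5) in PKD + Clodronate, and 16.4 ± 0.175 (n = 6) in PKD + Controlliposomes rats. Levels of different genes are not compared, since each has its own assay.

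*Mrc1* expression ranged from -1.76 to 0.81 in SD rats, with a median of 0.30. It ranged from -0.31 to 0.74 in PKD rats, with a median of 0.33. The 5 clodronate-treated PKD rats stood at 0.014, 1.54, 0.71, 0.16, and -0.012. Thus 3 of these 5 lay near the SD mean and 1 stood above all other rats. In rats given control liposomes, *Mrc1* ranged from -0.84 to 1.48 with a median of 0.33. All 4 groups overlapped, and the lowest of all *Mrc1* values belonged to an SD rat, rat 93.

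*Mrc2* expression, the collagen receptor, ranged from -0.95 to 1.08 in SD rats with a median of -0.0028, and from -0.77 to 0.77 in PKD rats with a median of 0.074. The clodronate-treated rats stood at 0.66, 0.61, 0.81, 0.39, and 0.63. In rats given control liposomes it ranged from -0.71 to 1.03 with a median of 0.17. The 5 clodronate-treated rats were all above the means of each of the other groups, but inside the ranges of SD and control liposome rats. Their standard deviation for *Mrc2*, 0.153, was the lowest of the 41 tested genes in that group.

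*Stab1* expression ranged from -1.23 to 0.93 in SD rats with a median of -0.0084, and from -0.47 to 0.42 in PKD rats with a median of 0.0048. The clodronate-treated rats stood at -0.16, 0.96, 0.19, -0.33, and 0.56. In rats given control liposomes it ranged from -0.58 to 1.08 with a median of -0.013. As for *Mrc1*, the SD rats covered the widest range and their lowest value was that of rat 93.

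**Figure D1:**
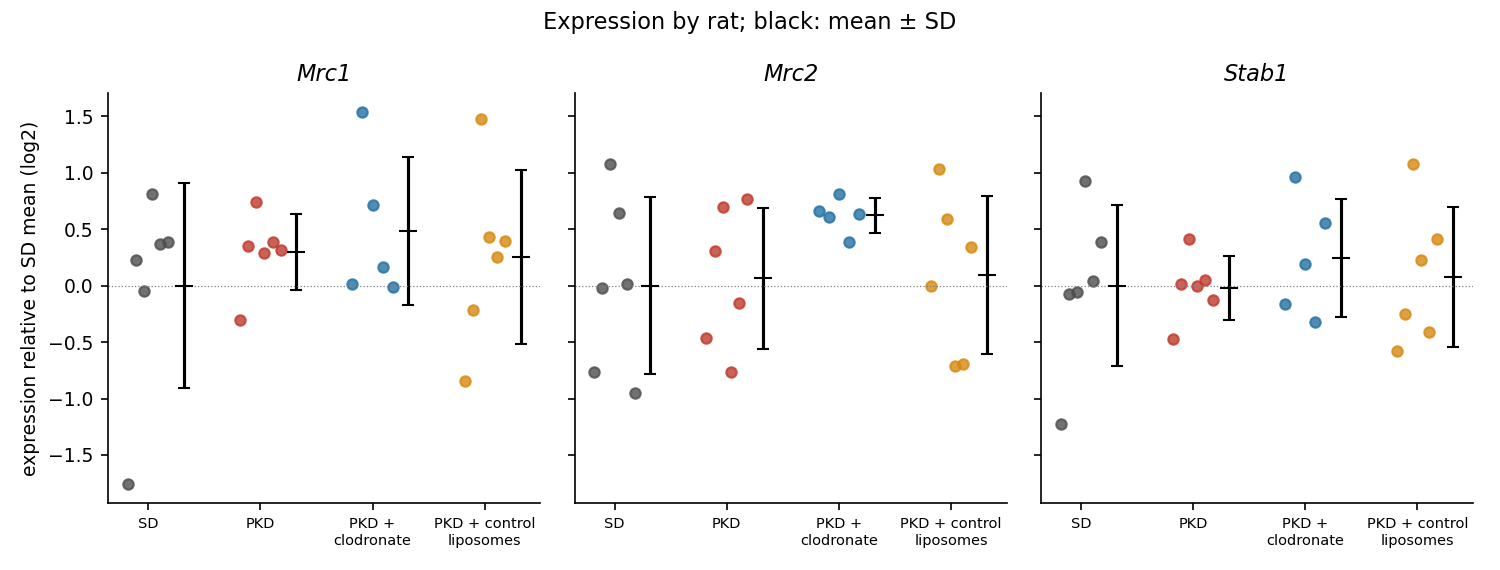
Expression of *Mrc1*, *Mrc2*, and *Stab1* by rat (points) in the 4 groups, on a log2 scale with the SD group mean at 0 (dotted line), with the mean and standard deviation beside them in black (n = 6, 6, 5, and 6). The groups overlap for each gene, the *Mrc2* values of the 5 clodronate-treated rats lie close together between 0.39 and 0.81, and 1 SD rat stands low for *Mrc1* at -1.76.

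The order of the group means was SD, PKD + Controlliposomes, PKD, and PKD + Clodronate for *Mrc1* (0, 0.25, 0.30, and 0.48). For *Mrc2* it was SD, PKD, PKD + Controlliposomes, and PKD + Clodronate (0, 0.064, 0.093, and 0.62), and for *Stab1* PKD, SD, PKD + Controlliposomes, and PKD + Clodronate (-0.020, 0, 0.080, and 0.25). No neighbours in these orders differed beyond their spread, and neither did the ends. On this scale and with all rats, the clodronate-treated group had the highest mean for each gene. Without its rat of highest *Mrc1* expression (1.54), the *Mrc1* mean was below those of PKD (difference -0.078) and control liposome rats (-0.031), and the *Stab1* mean was below that of control liposome rats (-0.014). With the average of the card as normalizer, described with the comparisons, SD rats had the highest mean for all 3 genes. Over all 4 groups, the adjusted p of the limma F test was 0.703 for *Mrc1*, 0.400 for *Mrc2*, and 0.856 for *Stab1*. *Stab1* and *Mrc1* had the lowest and next lowest F of the 41 genes tested. The rats within a group were nevertheless spread for each of the 3 genes. The pooled standard deviation within groups was 0.702 for *Mrc1*, 0.631 for *Mrc2*, and 0.560 for *Stab1*, against a median of 0.535 over the 41 genes.

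The comparison of PKD with SD rats asked whether the receptors changed with the degeneration of this model. None of the 3 genes passed the threshold, an adjusted p under 0.05, whereas 36.6% of the 41 tested genes did, 14 of these 15 with higher expression in PKD rats. The difference (PKD minus SD, log2) was 0.30 for *Mrc1* (95% interval -0.49 to 1.09, adjusted p = 0.589), and 5 of 6 PKD rats were above the SD mean. It was 0.064 for *Mrc2* (-0.66 to 0.78, adjusted p = 0.900) and -0.020 for *Stab1* (-0.67 to 0.63, adjusted p = 0.951). In folds, the intervals reached from 0.711 to 2.12 for *Mrc1*, 0.634 to 1.72 for *Mrc2*, and 0.627 to 1.55 for *Stab1*, so that smaller changes in either direction were not detectable with these rats. The median difference was 0.064 for the 3 genes and 0.44 for all tested genes. Without rat 93, the *Mrc1* difference was -0.055 and that of *Stab1* -0.27 (adjusted p = 0.528).

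The result against SD rats depended on the normalizer. The 40 specific genes detected in all rats, the 3 receptors among them, gave an alternative normalizer, the average of the card. When it replaced the reference genes, the median difference of all genes moved by -0.82 and the calls changed from 14 higher and 1 lower to 7 higher and 16 lower. On that scale *Stab1* (-0.84, adjusted p = 0.00881) and *Mrc2* (-0.76, adjusted p = 0.0262) were lower in PKD than in SD rats, and *Mrc1* stood at -0.53 (adjusted p = 0.153). The differences thus lay near 0 for *Mrc2* and *Stab1* relative to the reference genes, and below 0 relative to the average of the card, which is rich in inflammation genes. Among the reference genes, *B2m*, the light chain of MHC class I, had a Cq 0.35 lower in PKD rats (exact permutation p = 0.0584), and *Ywhaz* a Cq 0.46 higher (exact permutation p = 0.0758). Both had adjusted p of 0.314 or above over the 30 tests of the reference Cq. Which normalizer is nearer to the RNA content of a retina was not tested.

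The comparison of clodronate-treated with uninjected PKD rats asked for the joint effect of the injections, the liposomes, and the drug, which it cannot separate. None of the 3 genes passed, and 0% of the 41 genes did (5 had an unadjusted limma p under 0.05, none of them a receptor). The largest difference of the 3 was that of *Mrc2*, 0.56 (95% interval -0.20 to 1.31, adjusted p = 0.472, exact permutation p = 0.106), a fold of 1.47, with 5 of 5 treated rats above the PKD mean. *Stab1* differed by 0.27 (-0.42 to 0.95, adjusted p = 0.683) and *Mrc1* by 0.19 (-0.64 to 1.01, adjusted p = 0.781). Without the treated rat of highest *Mrc1* expression, *Stab1* differed by 0.086 and *Mrc1* by -0.078. The median of the 3 was 0.27, beside 0.020 for all genes. Relative to the average of the card, the differences were 0.50, 0.21, and 0.13 in the same order, and none passed.

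Against control liposomes, which share the injection, none of the 3 genes passed and 4.88% of the tested genes did. These were 2 genes, the microglia and macrophage markers *Aif1* and *Itgam*, which were lower under clodronate by 0.99 and 0.81 (adjusted p = 0.0194 and 0.0278). *Mrc2* was at 0.53 (-0.23 to 1.28, adjusted p = 0.563), *Mrc1* at 0.23 (-0.59 to 1.06, adjusted p = 0.815), and *Stab1* at 0.17 (-0.52 to 0.85, adjusted p = 0.853). The median was 0.23 for the 3 receptors and -0.069 for all genes. Without *B2m* among the reference genes neither marker passed (*Aif1* -0.97, adjusted p = 0.0796; *Itgam* -0.78, adjusted p = 0.204), and without *Mrpl19* only *Aif1* passed (*Itgam* -0.73, adjusted p = 0.0870). None of the receptors passed in either case.

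Injection of control liposomes, compared with no injection in PKD rats, left *Mrc1* at -0.047 (-0.83 to 0.74, adjusted p = 0.950), *Mrc2* at 0.029 (-0.69 to 0.75, adjusted p = 0.950), and *Stab1* at 0.10 (-0.55 to 0.75, adjusted p = 0.870). None passed, as against 2.44% of the genes tested, and 7 genes but no receptor had an unadjusted limma p under 0.05. On the reference gene scale, these 3 differences were the smallest of the comparisons among PKD rats, with a median of 0.029 beside 0.22 for all genes. Relative to the average of the card, *Mrc1* was at -0.27, larger in size than its difference between clodronate-treated and uninjected PKD rats.

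The 2 comparisons of liposome-injected PKD rats with SD rats share the SD rats with the first comparison. In clodronate-treated rats, 51.2% of the genes passed and none of the 3 receptors. *Mrc2* came nearest, at 0.62 (-0.13 to 1.38, adjusted p = 0.162, exact permutation p = 0.134), followed by *Mrc1* at 0.48 (-0.34 to 1.31, adjusted p = 0.318) and *Stab1* at 0.25 (-0.44 to 0.93, adjusted p = 0.491). Without SD rat 93, *Mrc1* was at 0.13 and *Stab1* at 0.00024. Of the fits that left out a single rat, only that without SD rat 97, which had the highest *Mrc2* value of its group, brought *Mrc2* past the threshold, at 0.84 (adjusted p = 0.04996). In rats with control liposomes, 63.4% of the genes passed and again none of the receptors, with *Mrc1* at 0.25 (adjusted p = 0.591), *Mrc2* at 0.093 (adjusted p = 0.843), and *Stab1* at 0.080 (adjusted p = 0.843). The medians of the 3 were 0.48 and 0.093, beside 0.63 and 0.75 for all genes.

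As for uninjected PKD rats, these values turned with the normalizer. Relative to the average of the card, all genes moved by a median of -0.88 under clodronate and of -1.05 under control liposomes. Clodronate-treated rats were then at -0.40 for *Mrc1*, -0.26 for *Mrc2*, and -0.64 for *Stab1*, and *Stab1* passed (adjusted p = 0.0435). Rats with control liposomes were at -0.80, -0.96, and -0.97 (adjusted p = 0.0298, 0.00771, and 0.00238), and all 3 passed. The calls over the card went from 23 higher and 3 lower to 8 higher and 17 lower in control liposome rats, and from 19 higher and 2 lower to 9 higher and 13 lower in clodronate-treated rats. On that scale the mean of each receptor was higher with clodronate than with control liposomes, by 0.40 for *Mrc1*, 0.70 for *Mrc2*, and 0.33 for *Stab1*, and none of these differences passed.

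**Figure D2:**
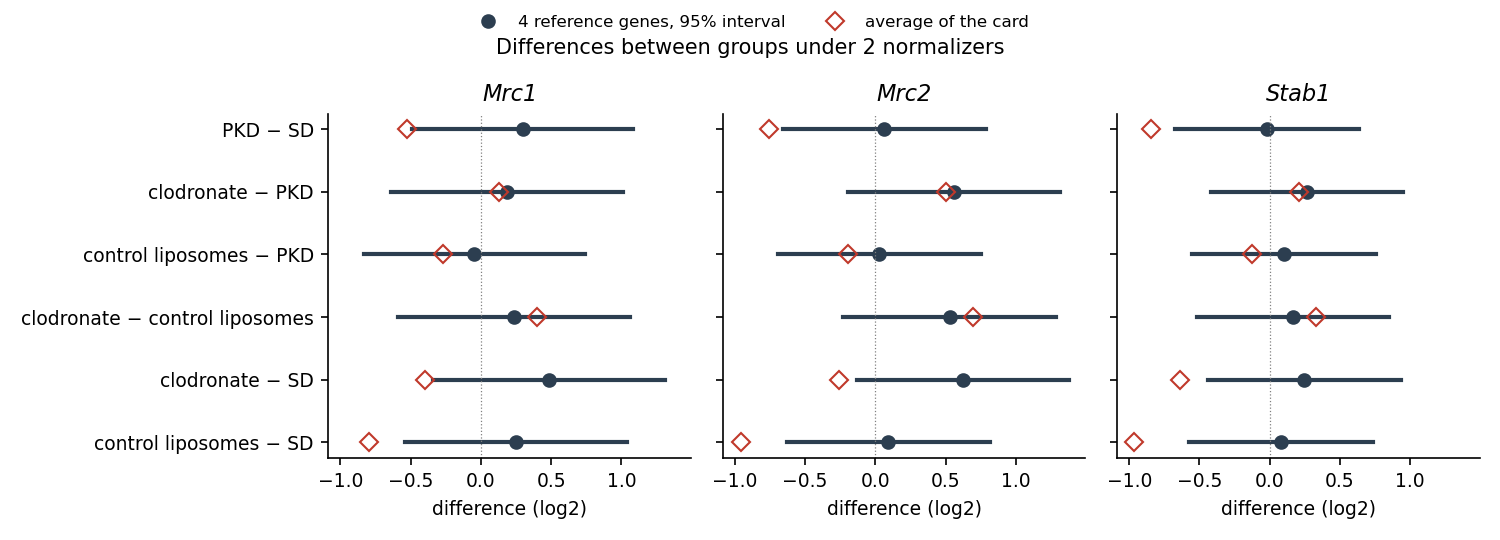
Differences between groups (log2, first group minus second) for *Mrc1*, *Mrc2*, and *Stab1*, with the 4 reference genes as normalizer (points, with 95% intervals of limma as lines) and with the average of the card (open diamonds). The intervals of the reference gene scale include 0 in every comparison, while the diamonds lie left of 0 in the 3 comparisons with SD rats, down to -0.97 for *Stab1*.

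The card also held markers of cells that could carry these receptors. Of 9 microglia and macrophage markers, 3 were higher in PKD than in SD rats, beside the 36.6% of all tested genes that passed, *Itgam* (0.83, adjusted p = 0.00275), *Tyrobp* (0.85, adjusted p = 0.00927), and *Lgals3* (0.93, adjusted p = 0.0215), with a median of 0.49 over the list beside 0.44 over all genes. *Itgam* encodes the integrin CD11b and *Tyrobp* the adaptor DAP12. In limma with the 4 reference genes, none of the 9 passed upon clodronate or control liposomes in comparison with uninjected PKD rats. By the exact permutation test, *Itgam* and *Aif1* were higher upon control liposomes (0.67 and 0.65, adjusted exact permutation p = 0.0296 and 0.0444). In limma, *Itgam* passed there without *18S* (0.76, adjusted p = 0.0226) and with the average of the card (0.45, adjusted p = 0.0457). Against SD rats, the same 3 were higher upon clodronate (51.2% of all genes passed), and 5 were higher upon control liposomes (63.4% of all genes passed), *Aif1* and *Fcgr3a* among them. With the average of the card, however, no marker was higher and 4 were lower in PKD than in SD rats (*Aif1*, *Cd74*, *Fcgr2a*, and *Trem2*). Of all 41 tested genes, 7 were higher and 16 lower there. Against SD rats, 1 marker was then higher and 2 lower upon clodronate, and 1 was higher and 3 lower upon control liposomes. Over all 41 genes, 9 were higher and 13 lower upon clodronate, and 8 higher and 17 lower upon control liposomes. *Gfap*, the intermediate filament of reactive Müller glia and astrocytes, was higher in PKD than in SD rats on both scales (2.62, adjusted p = 4.61e-08; 1.80, adjusted p = 6.38e-08).

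Of the vessel genes, *Icam1*, the adhesion molecule of activated endothelium, was higher in PKD than in SD rats on the reference gene scale (1.06, adjusted p = 0.00134), while *Pgf* (0.40) and *Vegfa* (-0.18) did not pass. *Pgf* was higher than in SD rats in both liposome groups, and *Vegfa* was lower upon control liposomes (-0.66, adjusted p = 0.00921). Upon control liposomes, *Pgf* did not pass without *Mrpl19* or without *Ywhaz*, nor *Vegfa* without *B2m*. Of the matrix genes *Timp1*, *Tgfb2*, and *C1s*, 0 of 3 passed in PKD against SD rats (36.6% of all genes). *C1s* and *Timp1* were higher in either liposome group than in SD rats, 2 of 3 beside 51.2% of all genes upon clodronate and 63.4% upon control liposomes, except that *Timp1* did not pass upon clodronate without *18S* (adjusted p = 0.0594). Relative to the average of the card, neither *Icam1* and *Pgf* nor these calls of *C1s* and *Timp1* passed. On that scale *Vegfa* was lower in each PKD group than in SD rats, *Tgfb2* was lower in uninjected PKD and control liposome rats than in SD rats, and *C1s* was higher upon clodronate (0.87, adjusted p = 0.0216) and control liposomes (0.64, adjusted p = 0.0457) than in uninjected PKD rats. The card holds no gene that defines retinal neurons, and the part of these markers in the receptor values was not tested.

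*Mrc1* belongs to the genes used to describe alternative activation of macrophages. Of the other such genes on the card, the cytokine *Il10*, *Tgfb1*, and the growth factor *Igf1* had enough Cq values for a test, and none of these 3 passed in any of the 6 comparisons on the reference gene scale. In PKD against SD rats their differences were 0.37 for *Il10*, 0.14 for *Tgfb1*, and -0.23 for *Igf1*. Upon clodronate they stood at -0.97, 0.49, and -0.24 relative to uninjected PKD rats, without a common direction. *Retnla*, *Chi3l3*, and *Il13* gave Cq values in too few rats. Relative to the average of the card, *Igf1* and *Tgfb1* were lower in PKD than in SD rats, *Igf1* and *Il10* were lower than in SD rats upon clodronate, and all 3 were upon control liposomes. *Igf1* was also lower upon control liposomes than in uninjected PKD rats on that scale (-0.55, adjusted p = 0.0359). Without 1 of the reference genes *Igf1* (lower) or *Tgfb1* (higher) passed in comparisons of the liposome groups with SD rats.

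While the group means differed little, the rats within a group did differ, and *Mrc1* and *Stab1* varied together. Over the 23 rats, as deviations from the group means, Pearson's r was 0.892 and Spearman's rho 0.815. The p of r was 1e-05 in 100000 permutations within groups, the smallest they can give (adjusted over the 3 pairs of receptors, 3e-05), and that of rho was 3e-05 (adjusted 9e-05). SD rat 93 was low for both genes, and in each of the 4 groups the rat with the highest *Mrc1* was also the highest for *Stab1*. Without the 2 rats farthest from the median of *Mrc1*, rat 93 and the highest control liposome rat, r was 0.773 (permutation p = 0.00036). By group, r was 0.952 in SD, 0.974 in PKD, and 0.909 in control liposome rats, and it was 0.695 in the 5 clodronate-treated rats, where 1 rat was the lowest for *Mrc1* (-0.012) and next to the highest for *Stab1* (0.56). The pair ranked 3 of 780 pairs of genes with a Cq in every rat, whose median r was 0.307. All values of a rat share its reference Cq.

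*Mrc2* was not shown to vary with either. For *Mrc1* and *Mrc2*, r was 0.274 and rho 0.202 (permutation p = 0.285 and 0.378, the same after adjustment), and r was -0.0071 without the same 2 rats. For *Mrc2* and *Stab1*, r was 0.332 and rho 0.242 (permutation p = 0.185 and 0.302; adjusted 0.278 and 0.378), and without the 2 rats farthest from the median of *Mrc2*, both of the SD group, r was 0.469 (permutation p = 0.0521). Of these, rat 97 was the highest of its group for *Mrc2* (1.08) and near the group mean for *Mrc1* (-0.048), and the other was the lowest for *Mrc2* (-0.95) and above the mean for *Mrc1* (0.39) and *Stab1* (0.39).

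The relation of *Mrc1* to *Stab1* remained with each other normalizer. With the raw Cq, r was 0.899, with the average of the card 0.822 (permutation p, adjusted, 0.00138), and without one reference gene at a time between 0.843 (without *18S*) and 0.923 (without *B2m*). The Cq of the reference genes, which are part of the average, also went with the receptor values. The deviations of the *18S* Cq correlated with those of *Mrc1* at r = 0.673, of *Stab1* at 0.607, and of *Mrc2* at 0.218. Those of *B2m* correlated at -0.449, -0.319, and -0.140, those of *Ywhaz* at 0.192, 0.422, and 0.061, and those of *Mrpl19* at 0.052, 0.195, and -0.146 in the same order.

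**Figure D3:**
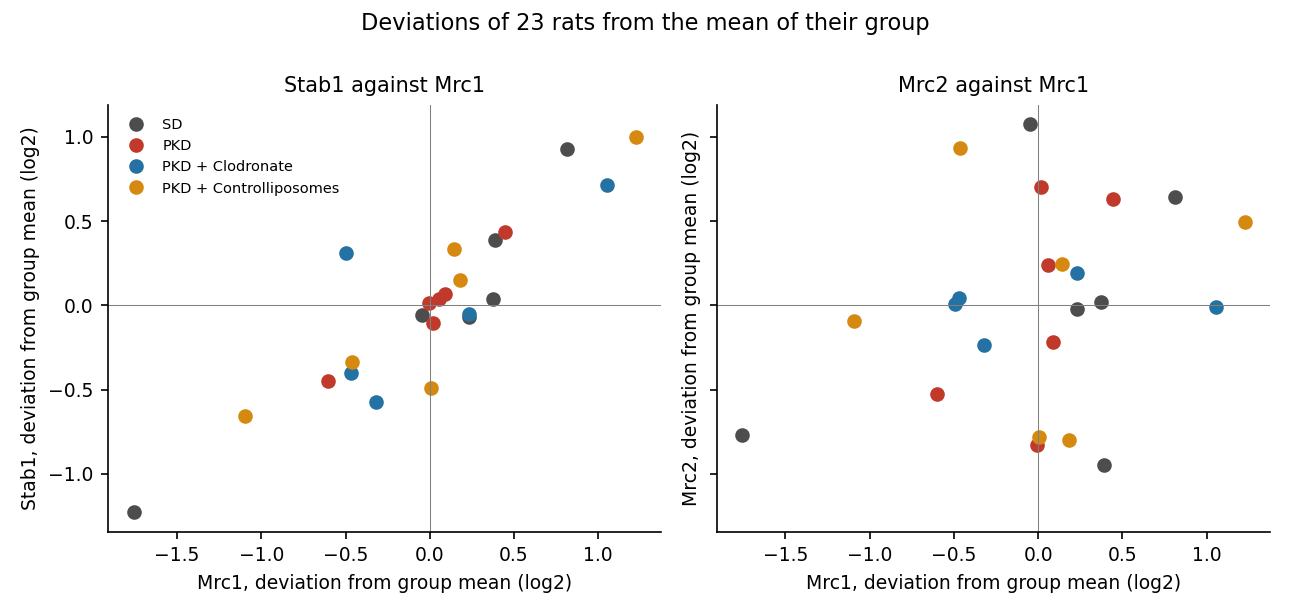
Deviations of the 23 rats from the mean of their group (log2) for *Stab1* against *Mrc1* (left) and *Mrc2* against *Mrc1* (right), coloured by group. *Stab1* follows *Mrc1* (r = 0.892), with rat 93 of the SD group at the lower left, whereas the points of *Mrc2* spread without such a relation (r = 0.274).

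Among the 37 other genes with a Cq in every rat, the deviations of *Mrc1* were most like those of *Fcgr2a*, an Fc receptor for IgG on myeloid cells (r = 0.924 over 23 rats), of *Icam1* (0.852), and of *Pgf*, placental growth factor (0.845). *Mrc1* and *Fcgr2a* had the highest r of all 780 pairs. In SD rats, the Cq of *Fcgr2a* lay between 31.0 and 32.7, and its lowest expression was -1.76 beside a median of 0.28. The r of the receptors with these other genes were not computed without single rats. *Stab1* was most like *Icam1* (0.890), *Pgf* (0.859), and *C5ar1*, the receptor of complement C5a (0.828). The lists of *Mrc1* and *Stab1* thus share *Icam1* and *Pgf*. The next gene was *C5ar1* for *Mrc1* (0.826) and *Fcgr2a* for *Stab1* (0.799), so their difference comes from the cut at 3 genes. *Mrc2* had lower values and other genes, *Lgals3* (0.651), *C1s* (0.602), and *Gfap* (0.553). With the average of the card as normalizer, r was 0.880 for *Mrc1* and *Fcgr2a* and 0.840 for *Stab1* and *Icam1*, but 0.414, 0.225, and 0.193 for *Mrc2* and its 3 genes. The median r over the 37 genes was 0.311 for *Mrc1*, 0.366 for *Mrc2*, and 0.346 for *Stab1*.

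**Figure D4:**
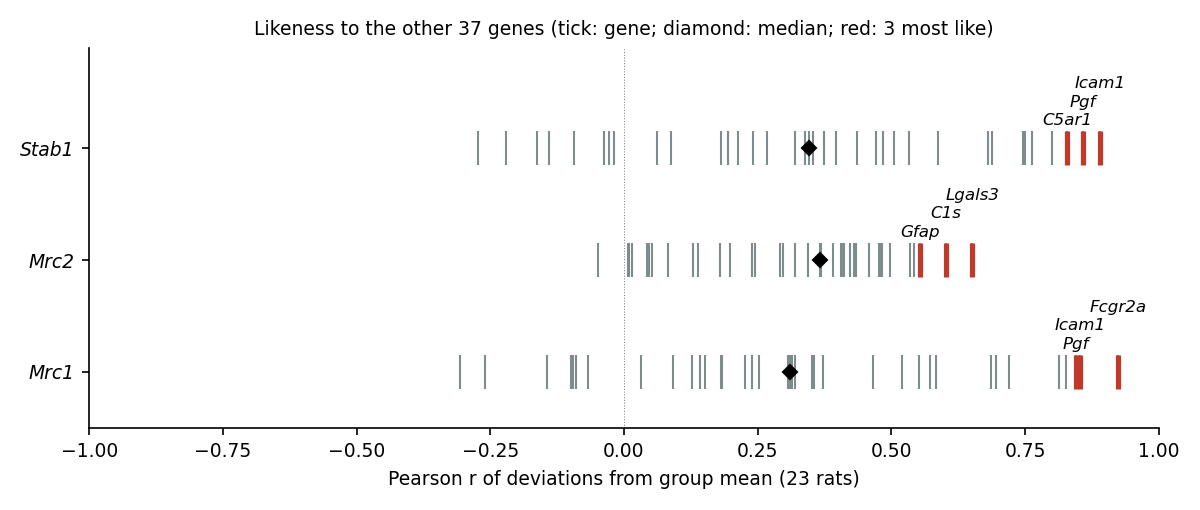
Pearson r between the deviations of each receptor and those of each of the 37 other genes over 23 rats (ticks), with the 3 most like genes in red and the median as a diamond. *Mrc1* and *Stab1* reach 0.924 and 0.890 and share *Icam1* and *Pgf*, and the highest r of *Mrc2* is 0.651, with *Lgals3*.

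Ratios of genes within a rat, the Cq of one gene minus that of another, need no reference gene. Only their changes between groups are compared, since assays differ. The *Mrc1* to *Stab1* ratio varied little within groups, with a pooled standard deviation of 0.324 on the log2 scale, against 0.806 for *Mrc1* to *Mrc2* and 0.691 for *Stab1* to *Mrc2*. It was tightest in the PKD rats, at 0.0051 ± 0.088 (standard deviation, n = 6) from -0.15 to 0.13. In SD rats it was -0.31 ± 0.315 (n = 6), from -0.84 to 0.023. The difference of 0.32 had an exact two-sided permutation p of 0.0303, but 0.273 after adjustment over the 36 ratio tests, and the groups overlapped. It was 0.21 without rat 93. In clodronate-treated and control liposome rats the ratio was -0.075 ± 0.478 (n = 5) and -0.14 ± 0.330 (n = 6).

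*Aif1*, which encodes the microglia marker Iba1, served as a further denominator. Whether the cells that carry the receptors express *Aif1* was not tested, so these ratios are not values per carrying cell. The *Mrc2* to *Aif1* log2 ratio was 2.74 ± 0.576 (n = 5) in clodronate-treated rats, from 2.22 to 3.69, and 1.22 ± 0.737 (n = 6) in control liposome rats, from 0.24 to 1.94. These 2 groups did not overlap. The difference was 1.52 (exact two-sided permutation p = 0.00433, where 0.00216 is the smallest possible, adjusted p = 0.156), of which 0.99 is the lower *Aif1* and 0.53 the higher *Mrc2* of the clodronate-treated rats. For *Stab1* to *Aif1* the difference was 1.16 (exact permutation p = 0.0260, adjusted p = 0.273), and for *Mrc1* to *Aif1* 1.23 (exact permutation p = 0.0476, adjusted p = 0.286). None of the 36 tests passed after adjustment. With *Itgam* in place of *Aif1*, the differences were 1.34, 0.97, and 1.04 for *Mrc2*, *Stab1*, and *Mrc1* (adjusted p = 0.0779, 0.121, and 0.121).

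Relative to uninjected PKD rats, whose *Mrc2* to *Aif1* ratio was 1.84 ± 0.660 (n = 6), the clodronate-treated rats were higher by 0.91 (exact permutation p = 0.0411, adjusted p = 0.286). Relative to SD rats, at 1.90 ± 0.592 (n = 6), they were higher by 0.85 (exact permutation p = 0.0281, adjusted p = 0.273). The latter was -0.074 with *Itgam* as the denominator. Between PKD and SD rats the ratio differed by -0.059 (exact permutation p = 0.868), and by -0.77 with *Itgam* as the denominator (adjusted p = 0.220).

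**Figure D5:**
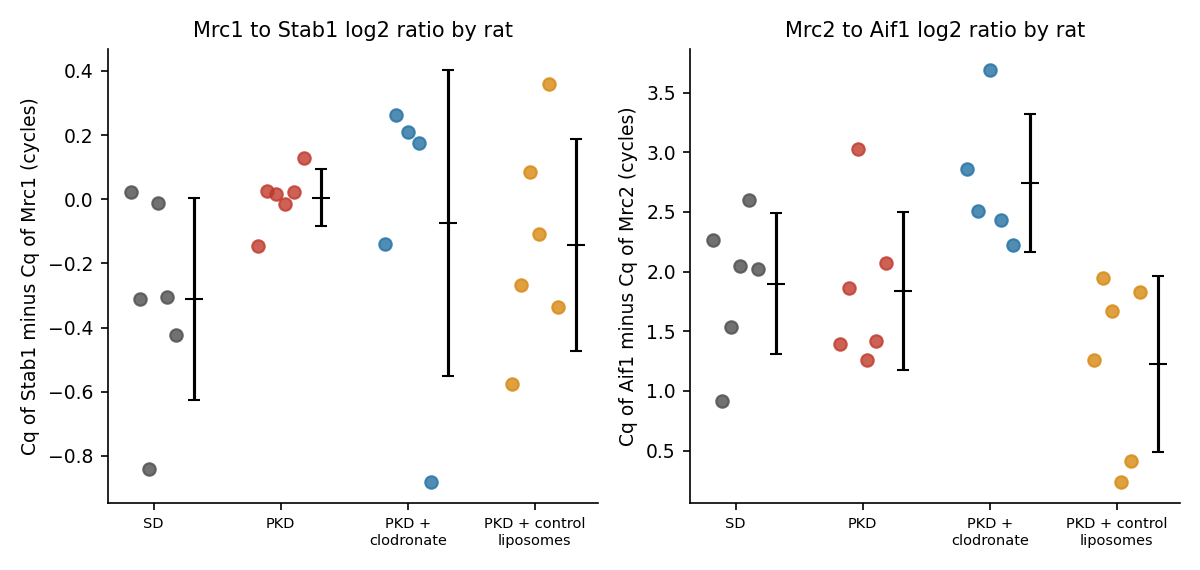
Log2 ratios within each rat (Cq differences in cycles) of *Mrc1* to *Stab1* (left) and *Mrc2* to *Aif1* (right) in the 4 groups, with the mean and standard deviation in black (n = 6, 6, 5, and 6). The *Mrc1* to *Stab1* ratio of the PKD rats lies between -0.15 and 0.13, and the *Mrc2* to *Aif1* ratios of clodronate-treated rats, from 2.22, lie above those of control liposome rats, up to 1.94.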

How the data were processed

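The deposited values are Cq, in PCR cycles (another unit than counts or intensities), of 48 wells in 34 rats. The authors read them after 14 cycles of pre-amplification of the cDNA. A second deposited table holds the authors' own fold changes and was not used. Wells were named by matching Cq to the gene key of the study's supplement (within 0.0001 cycles), and rats were grouped by its sample list, since the labels do not pair rat numbers with samples. A further 11 columns, of rats in no such group, were not used. Empty wells were not filled, and the 41 specific genes with at least 3 Cq in each group were tested.

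Groups were compared with limma 3.58.1 (lmFit and eBayes over 4 groups, R 4.3.3), two-sided, with Benjamini–Hochberg adjustment over the 41 genes and a threshold of 0.05. Exact permutation tests of differences between group means were run beside it (NumPy 2.4.6). The procedure was tested on simulated data. Correlations used 100000 permutations within groups, with the ranks for rho from SciPy 1.17.1. Each gene had 1 well in a rat and the template copies are unknown, so that 5 or 6 rats per group set the precision. The text names the 3 receptors, the reference genes, fixed lists of markers, and the 3 genes most like each receptor, and 1 listed gene is not reported here. Receptors and lists were chosen with earlier results of these data known. The alternatives were other normalizers, tests, and filters, and leaving out each rat.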

Additional observations from a re-analysis of the deposited data

Results flagged for a closer look

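Among 40 sets of values by group, 1 held a rat far from the others, and about 2 would by chance. SD rat 93 had an *Mrc1* expression of -1.76 (log2, relative to the SD mean), while the other 5 SD rats lay between -0.048 and 0.81. The same rat was the lowest SD rat for *Stab1*, and its *18S* Cq of 5.53 was the lowest of its group. Relative to the mean of the other SD rats, its *Mrc1* stood at -2.11 with the 4 reference genes. It was at -1.84 without *18S*, -2.43 without *B2m*, -2.07 without *Mrpl19*, and -2.09 without *Ywhaz*. In raw Cq it was at -1.48, and with the average of the card at -1.32, where another SD rat was at -1.04.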

How the results depend on the processing

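The relation of *Mrc1* to *Stab1* kept its direction and its side of the threshold under all 7 other settings and without each rat (r from 0.822 to 0.943). No receptor passed in any comparison among PKD rats under any alternative. With the average of the card (the 40 specific genes detected in all rats) as normalizer, 2 receptors passed in PKD against SD rats, 1 in clodronate-treated against SD rats, and 3 in control liposome against SD rats. Of all 41 tested genes, 56.1%, 53.7%, and 61% passed in these comparisons on that scale, in the same order. That normalizer turned *Mrc1* to -0.53, -0.40, and -0.80 and *Mrc2* to -0.76, -0.26, and -0.96 in these comparisons in order, *Stab1* to -0.64 and -0.97 in the latter 2, *Mrc2* to -0.20 and *Stab1* to -0.12 in control liposome against PKD rats, and the correlations of *Mrc2* with *Mrc1* and *Stab1* to -0.12 and -0.061. *Stab1* in PKD against SD rats was at -0.84. The median of all genes moves by construction, and any other cause was not tested.

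Reversals under other reference genes or weights were as follows. In PKD against SD rats, *Mrc2* was at -0.0083 without *18S* and -0.033 without *Ywhaz*, and *Stab1* at 0.15 without *B2m*. In control liposome against PKD rats, *Mrc1* was at 0.039 without *18S* and 0.041 without *B2m*, *Mrc2* at -0.093 without *Mrpl19*, -0.023 without *Ywhaz*, and -0.024 with sample weights, and *Stab1* at -0.022 without *Mrpl19* and -0.025 with sample weights. In control liposome against SD rats, *Mrc2* was at -0.033 without *Mrpl19* and -0.056 without *Ywhaz*, *Stab1* at -0.045, -0.068, and, with sample weights, -0.12, and *Mrc1* with sample weights at -0.090. With *Itgam* in place of *Aif1*, the ratio of *Mrc1* went from 0.17 to -0.53 in PKD against SD rats, and those of *Mrc1*, *Mrc2*, and *Stab1* from 0.71, 0.85, and 0.47 to -0.21, -0.074, and -0.45 in clodronate-treated against SD rats. The causes were not tested.

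Leaving out 1 rat at a time gave, in PKD against SD rats, -0.055 to 0.46 for *Mrc1*, -0.13 to 0.28 for *Mrc2*, and -0.27 to 0.17 for *Stab1*. It gave -0.078 to 0.31 for *Mrc1* and 0.086 to 0.41 for *Stab1* in clodronate-treated against PKD rats, and -0.031 to 0.48 for *Mrc1* and -0.014 to 0.37 for *Stab1* against control liposomes. In control liposome against PKD rats it gave -0.29 to 0.17 for *Mrc1*, -0.16 to 0.19 for *Mrc2*, and -0.10 to 0.23 for *Stab1*, and against SD rats -0.10 to 0.47, -0.097 to 0.31, and -0.17 to 0.27. In clodronate-treated against SD rats, from 0 to 1 receptors passed, with *Mrc2* from 0.43 to 0.84, *Mrc1* from 0.13 to 0.65, and *Stab1* from 0.00024 to 0.43. For ratios, it gave -0.097 to 0.32 for *Mrc1* to *Aif1*, -0.30 to 0.081 for *Mrc2* to *Aif1*, and -0.31 to 0.18 for *Stab1* to *Mrc2* in PKD against SD rats. For *Mrc1* to *Mrc2* it gave -0.068 to 0.44 in control liposome against SD rats, -0.27 to 0.20 against PKD rats, and -0.41 to 0.13 in clodronate-treated against SD rats. For *Stab1* to *Mrc2* it gave -0.24 to 0.25 in control liposome against SD rats and -0.12 to 0.33 against PKD rats. For *Mrc1* to *Stab1* it gave -0.020 to 0.27 in clodronate-treated against control liposome rats and -0.16 to 0.12 against PKD rats.

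No paired analysis was possible because the groups are different rats, nothing in the sources ties a replicate number to a litter, batch, or day, and the columns carry rat numbers only. With 5 or 6 rats and 1 well each, intervals of the differences reached from a fold of 0.561 to one of 2.60, so smaller changes could be missed.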
